A study of Homo sapiens with 4 samples.

Results

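The nuclear-encoded subunits of the mitochondrial respiratory chain were followed in RNA sequencing of PANC-1 cells labelled as control or as CFL1 knockout. Members were the rows of the authors' deposited table whose gene symbol carried one of the family names NDUF, SDH, UQCR, CYC1, COX4 to COX8 or ATP5. Pseudogene, antisense and hyphenated symbols were left out, which removed 152 rows, 0 of them with a base mean of 100 or more. The rule gave 89 of 59885 rows: 38 for complex I, 5 for complex II, 10 for complex III, 17 for complex IV and 19 for complex V. PANC-1 is a human pancreatic ductal adenocarcinoma line, and CFL1 encodes cofilin-1, which severs actin filaments. Total RNA of 2 control libraries, labelled control1 and control2, was compared with that of 2 libraries labelled KO CFL1. The labels give no treatment, no time, no guide and no clone, and do not say whether the libraries came from separate cultures. A p-value here thus reflects how far these 4 libraries differ, and that may include technical variation.

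The respiratory chain passes electrons from NADH through complex I, or from succinate through complex II, to ubiquinone, then through complex III and cytochrome c to complex IV, where oxygen is reduced. Complexes I, III and IV pump protons across the inner mitochondrial membrane, and complex V, the ATP synthase, uses the resulting gradient to make ATP. Complexes I, III, IV and V also hold subunits encoded in mitochondrial DNA, while complex II is wholly nuclear-encoded.

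Reads in each library were recovered from the base means of the authors' deposited table, a base mean being the average over the 4 libraries of the count divided by a size factor. The recovered reads summed to 16069488 for control A, 15623868 for control B, 16418184 for knockout A and 13837083 for knockout B. These sums leave out the genes whose reads were not recovered. The letters are only names and cannot be matched to the numbered labels. Values below called normalized counts are these reads divided by the size factor. CFL1 had normalized counts of 6276 and 13761 in the controls against 2285 and 2487 in the knockouts, and the authors' deposited table gave it a DESeq2 adjusted p of 0.00168. CFL1 transcript was thus lower in the knockouts but still present. Control B was unlike the other libraries. Its log2(normalized count + 1) had a Pearson's r of 0.562 with that of control A over the 11486 genes at a base mean of 100 or more, where the knockouts reached 0.975 and 0.981. Genes are not independent replicates. All 5 markers fixed for PANC-1 (KRT7, KRT8, KRT18, KRT19 and VIM) had a base mean of at least 100, but KRT19 had normalized counts of 1.82 in control A, 2481 in control B and 0 in both knockouts. KRT7 had 3551, 108, 4000 and 3683 in control A, control B, knockout A and knockout B. In the same order KRT8 had 13712.5, 29355, 8150 and 8049, and KRT18 had 11358, 22850, 9031 and 8321. Control B was thus the highest library for KRT8, KRT18 and KRT19 and the lowest for KRT7. The reads of VIM were not recovered. The summed leukocyte markers were at 1255 in control B against 19.1 to 20.5 elsewhere, nearly all of it CD68, the summed fibroblast markers at 1854 in control B against 383 to 764, with LUM at 0, and the 3 acinar markers had no read in any library. The markers fixed for PANC-1 thus did not show which libraries are the labelled line, and identity was not tested for any library. Every deposited fold change is taken against both controls together. Results are therefore given against each control as well.

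Promoter sequences are shown for 1 member of each complex, the one with the lowest unadjusted p among the members found in the RefSeq promoter table of build GRCh38.p14, to let a reader see the motifs by which this gene family is known. Each stretch is the 150 bases before the annotated transcript start, written 5′ to 3′ on the gene's strand. Capitals mark matches, on either strand, to the motifs of nuclear respiratory factor 1, NRF1 (GCGCA, any base, GCGC), of the ETS family that includes GABPA (CCGGAAG), to CCAAT and to the GC box (GGGCGG).
NDUFA13, chr19:19516075-19516224, plus strand: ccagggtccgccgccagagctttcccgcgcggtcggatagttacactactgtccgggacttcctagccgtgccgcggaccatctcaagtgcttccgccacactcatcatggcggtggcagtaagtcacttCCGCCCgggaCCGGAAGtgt
SDHA, chr5:218170-218319, plus strand: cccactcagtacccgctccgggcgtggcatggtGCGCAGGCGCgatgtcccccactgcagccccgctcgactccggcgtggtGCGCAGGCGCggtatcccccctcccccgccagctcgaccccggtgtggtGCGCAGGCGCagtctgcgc
UQCRQ, chr5:132866492-132866641, plus strand: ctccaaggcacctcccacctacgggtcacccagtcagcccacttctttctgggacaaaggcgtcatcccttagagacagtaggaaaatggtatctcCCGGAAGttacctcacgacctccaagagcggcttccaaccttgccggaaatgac
COX6A1, chr12:120437963-120438112, plus strand: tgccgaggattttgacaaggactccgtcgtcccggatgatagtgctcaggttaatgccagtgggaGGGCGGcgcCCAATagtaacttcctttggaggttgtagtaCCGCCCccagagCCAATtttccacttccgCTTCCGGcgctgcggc
ATP5H, chr17:75046970-75047119, minus strand: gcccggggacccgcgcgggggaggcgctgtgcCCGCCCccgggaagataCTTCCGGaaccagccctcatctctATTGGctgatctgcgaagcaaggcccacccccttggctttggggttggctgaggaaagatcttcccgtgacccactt
The SDHA stretch held 3 copies of the NRF1 motif, and the other 4 stretches each held 1 ETS motif.

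Of the 89 members, 67 were found in the promoter table, and 61 of these had a base mean of at least 100. Over the whole 300-base promoters, from 250 bases before to 50 after the start, the NRF1 motif was present in 23% of the 61 members and in 6.28% of all 27305 promoters. The ETS motif was present in 29.5% of members and 10.7% of all promoters. The motif of YY1, another regulator of this family (AA, any base, ATGGCG and then GC), was present in 14.8% and 1.55%. The GC box stood at 60.7% against 44.6% and CCAAT at 34.4% against 35.7%. These are counts of letter matches, and a match is not a binding site. By complex, NRF1 matched 6 of 30 complex I promoters, 2 of 3 of complex II, 4 of 7 of complex III, 0 of 10 of complex IV and 2 of 11 of complex V. The ETS motif matched 5 of 30, 2 of 3, 3 of 7, 5 of 10 and 3 of 11 in the same order, the YY1 motif 6 of 30, 1 of 3, 2 of 7, 0 of 10 and 0 of 11, the GC box 19, 1, 3, 7 and 7, and CCAAT 8, 0, 3, 5 and 5. These counts are small and carry no test. Among the 9 matched members that had the lowest p-values on the higher side (described below), 5 held the ETS motif, 8 the GC box and 0 the NRF1 motif.

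No member passed the test. Of the 89 members, 84 had a base mean above 0 and the authors' deposited table gave 82 of them a DESeq2 adjusted p. Of these, 0 were under 0.05, against 93 of 16629 genes (0.559%), of which 23 were higher (0.138%) and 70 lower (0.421%). The lowest adjusted p was 0.0676, for COX6A1. At an unadjusted p under 0.05, 11 members were higher in the knockouts, which is 13.4% of the 82 against a background of 3.13% for that direction, and 1 row was lower, against 9.49%. That background is not matched for transcript length, and counts by length are given below. Among them were NDUFA13, NDUFA2, NDUFB5 and NDUFB11 of complex I, COX4I1, COX5B, COX6A1 and COX7B of complex IV, and ATP5G2 and ATP5H of complex V. Neither complex II nor complex III had such a member on the higher side. The deposited log2 fold changes of the 11 ranged from 0.43 to 0.86, and all 11 had both knockout libraries above both controls. Choosing by a small p in the same libraries favours such separation, so it is no added support. Of the 20 members at a base mean of at least 100 whose controls were more than 2-fold apart, 0 had such a p. A gap between the controls widens the standard error, so a small p was unlikely there from the start. The controls were that far apart in 26% of members and 38% of all genes at this base mean. With 2 against 2 libraries an exact permutation test of 1 gene cannot give a two-sided p below 1 in 3, so none was used. With limma on the recovered reads 0 of 84 members had an adjusted p under 0.05 (background 0%), and at an unadjusted p under 0.05, 2 were higher (background 1.13%) and 1 lower (0.958%). In total RNA of a culture, fewer cells and less RNA per cell cannot be told apart.

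**Figure D1:**
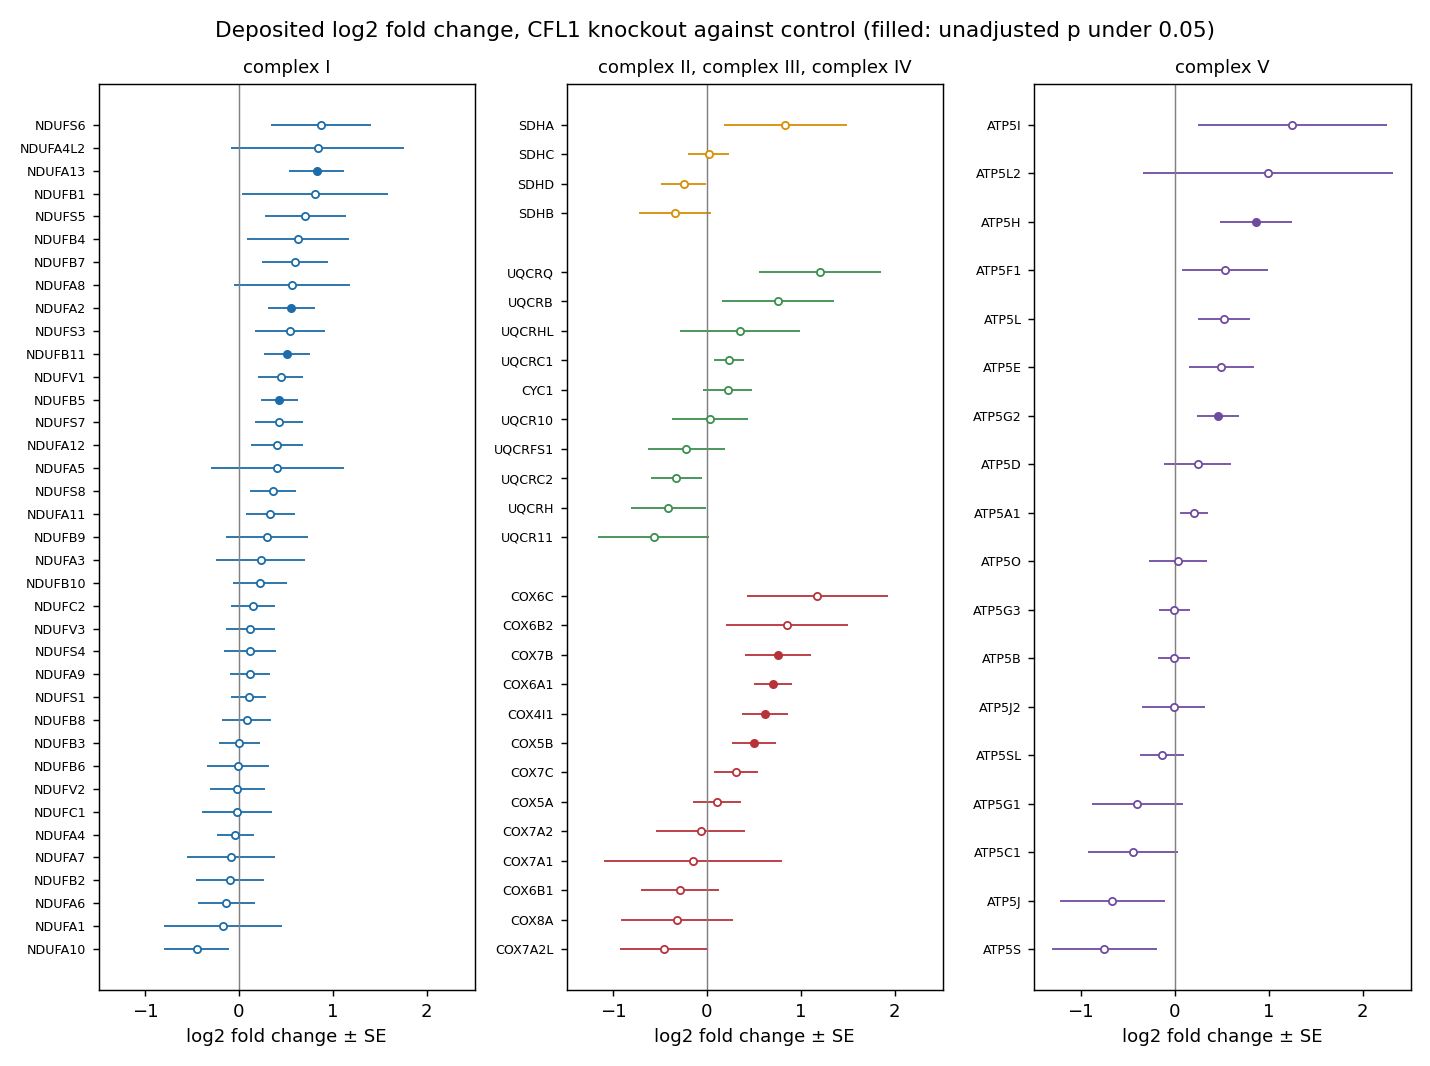
Deposited log2 fold change of CFL1 knockout against control with its standard error (horizontal axis) for 82 of 84 measured members, ordered within each complex; filled points have an unadjusted p under 0.05, and none has an adjusted p under 0.05. Complexes I and IV hold 8 of the 10 filled points drawn, and all filled points lie between 0.43 and 0.86; the 1 row that was lower at an unadjusted p under 0.05, a locus overlapping SDHD at -7.22, is not drawn.

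Complex I oxidizes NADH, and its nuclear core subunits carry the flavin and the iron-sulphur clusters. NDUFV1, which binds the flavin that accepts electrons from NADH, had normalized counts of 1558 for control A, 1753 for control B, 2489 for knockout A and 2010 for knockout B. Its deposited log2 fold change in the authors' table was 0.44 (standard error 0.237, DESeq2 adjusted p 0.419). Both knockouts lay above both controls. NDUFS3 had 1884 and 1073 in the controls against 2261 and 2047 in the knockouts, again without overlap, but there the controls differed from each other by more than the knockouts did from control A. NDUFS7 and NDUFS8, which hold iron-sulphur clusters on the path to ubiquinone, also had both knockouts above both controls, at 517 and 555 against 366 and 431 for NDUFS7. NDUFS1 and NDUFV2 overlapped. NDUFS1, the member of complex I with the highest base mean, had 5582, 4879, 5457 and 5784 in control A, control B, knockout A and knockout B. Its deposited log2 fold change of 0.10 in the authors' table had a standard error of 0.187.

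Accessory subunits surround the core and are needed for its assembly and stability. NDUFA13, also known as GRIM-19, had normalized counts of 1007 and 921 in the controls against 2013 and 1412 in the knockouts. The knockouts differed more from each other than the controls did, yet did not overlap them. The authors' deposited table gave it a log2 fold change of 0.83 (standard error 0.295, unadjusted p 0.00491, DESeq2 adjusted p 0.193). NDUFA2 had 332 and 293 in the controls against 465 and 456 in the knockouts. NDUFB5 had 1615 and 1434 against 2125 and 1986. NDUFB11, a membrane-arm subunit encoded on the X chromosome, had 1338 and 1209 against 2023 and 1602. None of these 3 overlapped, and in the authors' deposited table their DESeq2 adjusted p lay between 0.322 and 0.367. NDUFS6 had the highest deposited log2 fold change of complex I, 0.88 (standard error 0.535, DESeq2 adjusted p 0.482), from 218 and 104 in the controls against 336 and 256 in the knockouts. The controls were more than 2-fold apart there. At the other end stood NDUFA10, with 1181 and 1916 in the controls against 1160 and 1109 in the knockouts. It was the only member with a base mean of at least 100 whose knockouts both lay below both controls, and its difference from control A was -0.06 on the log2 scale. NDUFA1 had 236 for control A, 683 for control B, 485 for knockout A and 330 for knockout B, so that both knockouts lay between the controls. The remaining accessory subunits without overlap were NDUFA11, NDUFA12, NDUFB4, NDUFB7 and NDUFS5, all with the knockouts higher. NDUFB7 had 260 and 357 in the controls against 527 and 407 in the knockouts, and NDUFB4 had 525 and 210 against 585 and 554.

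Control B was more than 2-fold below control A in 3 of the accessory subunits that overlapped, NDUFA5, NDUFA8 and NDUFB1. NDUFA5 had 1237 for control A and 294 for control B, with 1018 and 1015 for the knockouts. NDUFA8 had 943 and 293 against 926 and 904, and NDUFB1 had 282 and 65.9 against 332 and 277. In these 3 genes the knockouts lay nearer to control A than to control B. NDUFB3 was nearly level, at 639 and 573 against 607 and 609. The others that overlapped at a base mean of at least 100 were NDUFA3, NDUFA6, NDUFA9, NDUFB2, NDUFB6, NDUFB8, NDUFB9, NDUFB10, NDUFC1, NDUFC2, NDUFS4 and NDUFV3. In all, 10 of 28 accessory subunits with a base mean of at least 100 (35.7%) had both knockouts above both controls. Beside this stood 24.6% of all genes and 33.6% of genes with transcripts under 1000 bases. The median transcript length of these subunits was 755.5 bases. In 1 of them both knockouts lay below both controls, beside 22.7% of all genes and 14.8% of genes under 1000 bases.

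The NDUFA4 family shows how far an isoform pair can differ in level. NDUFA4, named for complex I and since assigned to complex IV, had normalized counts of 1621, 1832, 1609 and 1755 in control A, control B, knockout A and knockout B, with overlapping groups. Its paralog NDUFA4L2, known as a hypoxia-induced gene, had 136, 24.6, 162 and 126. Control B was the low library and the other 3 lay together. Per kilobase of transcript, the mean normalized count of the 4 libraries was 800 for NDUFA4 and 95.4 for NDUFA4L2.

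Complex II, succinate dehydrogenase, takes electrons from succinate and also works in the citric acid cycle. SDHA, its flavoprotein, had normalized counts of 5528 for control A, 1426 for control B, 6458 for knockout A and 5953 for knockout B. Control B was the low library, while the knockouts lay above control A by 0.17 on the log2 scale. The deposited log2 fold change of SDHA in the authors' table was 0.84 (standard error 0.657, DESeq2 adjusted p 0.59). SDHB, the iron-sulphur subunit, had 997 and 1774 in the controls against 1148 and 1044 in the knockouts, with control B the highest. Both membrane anchors, which bind ubiquinone, overlapped as well. SDHC had 2429 and 2993 in the controls against 2677 and 2819 in the knockouts. SDHD (ENSG00000204370.9_3_SDHD) had 2451 and 3143 against 2250 and 2463. The table holds another row under the symbol SDHD (ENSG00000255292.7_3_SDHD), a locus that overlaps the gene and that GENCODE release 29 names differently. It had 8 reads for control A, 122 for control B, 1 for knockout A and 0 for knockout B. Nearly all its reads were in control B, and since RSEM divides reads between overlapping genes, its count is uncertain. This row was the 1 row lower at an unadjusted p under 0.05, where the authors' table gave it 0.000574 (DESeq2 adjusted p 0.0753).

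Complex III passes electrons from ubiquinol to cytochrome c. UQCRC1, a core protein and its member with the highest base mean, had normalized counts of 4443 and 4163 in the controls against 5115 and 5032 in the knockouts, without overlap. The deposited log2 fold change of UQCRC1 in the authors' table was 0.24 (standard error 0.159, DESeq2 adjusted p 0.524). UQCRC2, the other core protein, had 3190 and 4290 against 2732 and 3246, and the groups overlapped. The redox subunits are cytochrome c1, encoded by CYC1, and the Rieske iron-sulphur protein, encoded by UQCRFS1. CYC1 had 1181 and 1542 in the controls against 1676 and 1501 in the knockouts, and UQCRFS1 had 1715 and 3261 against 2302 and 1969. In both the knockouts were above control A and at least 1 was below control B.

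Among the small subunits of complex III the controls stood far apart. UQCRQ, which lies near the ubiquinone-binding cytochrome b, had 722 for control A, 211 for control B, 1221 for knockout A and 926 for knockout B. The deposited log2 fold change of 1.20 in the authors' table (standard error 0.651, DESeq2 adjusted p 0.424) was the highest of all members with a base mean of at least 100. On the log2 scale its knockout mean exceeded control A by 0.56 and control B by 2.33. UQCRB had 636, 234, 877 and 599 in the same order, with control B low and knockout B below control A. UQCR11 and UQCRH were the mirror image, with control B high. UQCR11 had 245, 671, 327 and 292, and UQCRH had 1314, 2444, 1363 and 1469, so that their knockouts lay above control A and below control B. UQCR10 had 204, 334, 284 and 266, with both knockouts between the controls. UQCRHL, an intronless copy of UQCRH to which reads may be wrongly divided, had 22, 28, 36 and 31 reads.

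Complex IV, cytochrome c oxidase, has 3 mitochondrially encoded catalytic subunits surrounded by nuclear-encoded ones, several of which exist as a general and a tissue-restricted isoform. COX6A1 (ENSG00000111775.2_3_COX6A1), the general isoform of subunit 6A, had normalized counts of 1484 for control A, 1478 for control B, 2607 for knockout A and 2221 for knockout B. The controls were nearly equal and both knockouts lay above them. The authors' deposited table gave it a log2 fold change of 0.71 (standard error 0.202, unadjusted p 0.000492, DESeq2 adjusted p 0.0676). With limma on the recovered reads the log2 fold change of COX6A1 was 0.70 (standard error 0.235, adjusted p 0.721), and without control B it was 0.70 (standard error 0.135, limma adjusted p 0.267). COX4I1, the largest nuclear subunit and the site of regulation by ATP, had 3140 and 2467 in the controls against 4632 and 4003 in the knockouts. COX5B, which binds zinc, had 1259 and 1034 against 1712 and 1541. COX7B, a small membrane subunit, had 1360 and 833 against 1998 and 1706. In these 3 genes the knockouts did not overlap the controls, and control B was the lowest library. Their deposited log2 fold changes in the authors' table were 0.62, 0.50 and 0.76 with DESeq2 adjusted p between 0.252 and 0.353.

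The widest split between the controls within complex IV was at COX6C and COX8A, small subunits of the membrane part. COX6C had 2657 for control A, 522 for control B, 3887 for knockout A and 3292 for knockout B. COX8A had 457, 1376, 784 and 688 in the same order. Control B was thus the lowest library for COX6C and the highest for COX8A, while the knockouts lay above control A in both, by 0.43 and 0.68 on the log2 scale. The authors' deposited table gave COX6C a log2 fold change of 1.17 (standard error 0.752) and COX8A one of -0.32 (standard error 0.597). COX7A2 and COX6B1 had the COX8A pattern. COX7A2 had 847, 1862, 1426 and 1159, and COX6B1 had 511, 943, 624 and 568, in control A, control B, knockout A and knockout B. COX7A2L, a factor that helps complexes III and IV join in supercomplexes, had 803, 1755, 944 and 917. COX5A and COX7C complete the general subunits. COX5A overlapped, at 602 and 576 against 704 and 567, whereas COX7C did not, at 2188 and 1721 against 2450 and 2399.

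Isoforms known from other tissues were scarce. COX4I2 of lung, COX6A2 of heart and muscle, and COX7B2 and COX8C of testis were listed at 0. COX7A1, the heart and muscle isoform of subunit 7A, had 8, 8, 8 and 7 reads in control A, control B, knockout A and knockout B. COX6B2, the testis isoform of subunit 6B, had 17, 21, 40 and 32 reads. Per kilobase of transcript, COX7A2 stood at a mean normalized count of 2757 and COX7A1 at 13.2. Summed striated muscle markers ranged from 5.59 to 65.4 normalized counts, with MYH7 at 0.

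Complex V consists of the catalytic F1 head, a central and a peripheral stalk, and the c ring that turns in the membrane. ATP5B, the catalytic beta subunit, was the member with the highest level per kilobase, with normalized counts of 17648, 19738, 18362 and 18849 in control A, control B, knockout A and knockout B. Its base mean lay in the range where 4 of 150 base means shifted on purpose also gave a solution, so its reads are less certain than those of the other members. Its deposited log2 fold change in the authors' table was -0.01 (standard error 0.169), and both knockouts lay between the controls. ATP5A1, the alpha subunit, had 8878 and 8847 in the controls against 10182 and 10213 in the knockouts. The libraries of each group were within 0.01 of each other on the log2 scale, and the deposited log2 fold change of ATP5A1 in the authors' table was 0.20 (standard error 0.147, DESeq2 adjusted p 0.558). ATP5C1 and ATP5D of the central stalk had overlapping groups. ATP5C1 (gamma) had 896 and 2017 against 1024 and 1124, and ATP5D (delta) had 876 and 1461 against 1421 and 1344. ATP5E, the epsilon subunit, had 1575 and 968 against 1784 and 1806 without overlap.

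Of the peripheral stalk, which holds the head still, ATP5H (subunit d) had 1007 and 599 in the controls against 1638 and 1285 in the knockouts. The authors' deposited table gave it a log2 fold change of 0.86 (standard error 0.383, unadjusted p 0.0241, DESeq2 adjusted p 0.323). ATP5F1 (subunit b) had 4652 and 2076 against 4837 and 4926, where the knockouts exceeded control A by 0.07 and control B by 1.23 (log2). ATP5J (subunit F6) had 250, 630, 282 and 274 in control A, control B, knockout A and knockout B, with control B the highest. ATP5O, the OSCP subunit that joins stalk and head, had 1227 and 1766 against 1650 and 1413. Among the small membrane subunits ATP5L (subunit g) had 513 and 434 against 751 and 607 without overlap, and ATP5J2 (subunit f) had 857 and 558 against 696 and 709 with overlap. ATP5L2, a copy of ATP5L, had 3, 2, 4 and 6 reads.

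The c ring is made of 1 protein encoded by 3 genes. ATP5G2 had 1372 and 1189 in the controls against 1892 and 1629 in the knockouts, with a deposited log2 fold change of 0.46 in the authors' table (standard error 0.225, DESeq2 adjusted p 0.378). ATP5G3 had 2448, 2404, 2374 and 2465, with overlapping groups. ATP5G1 had 726, 1642, 941 and 853, so that the 3 genes for the same protein did not share a pattern across the libraries. Symbols that fit the name but encode no subunit were ATP5S and ATP5SL, now named DMAC2L and DMAC2, and ATP5J2LP, listed at 0. ATP5S had 194, 463, 188 and 203, and ATP5SL had 533, 589, 480 and 540.

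**Figure D2:**
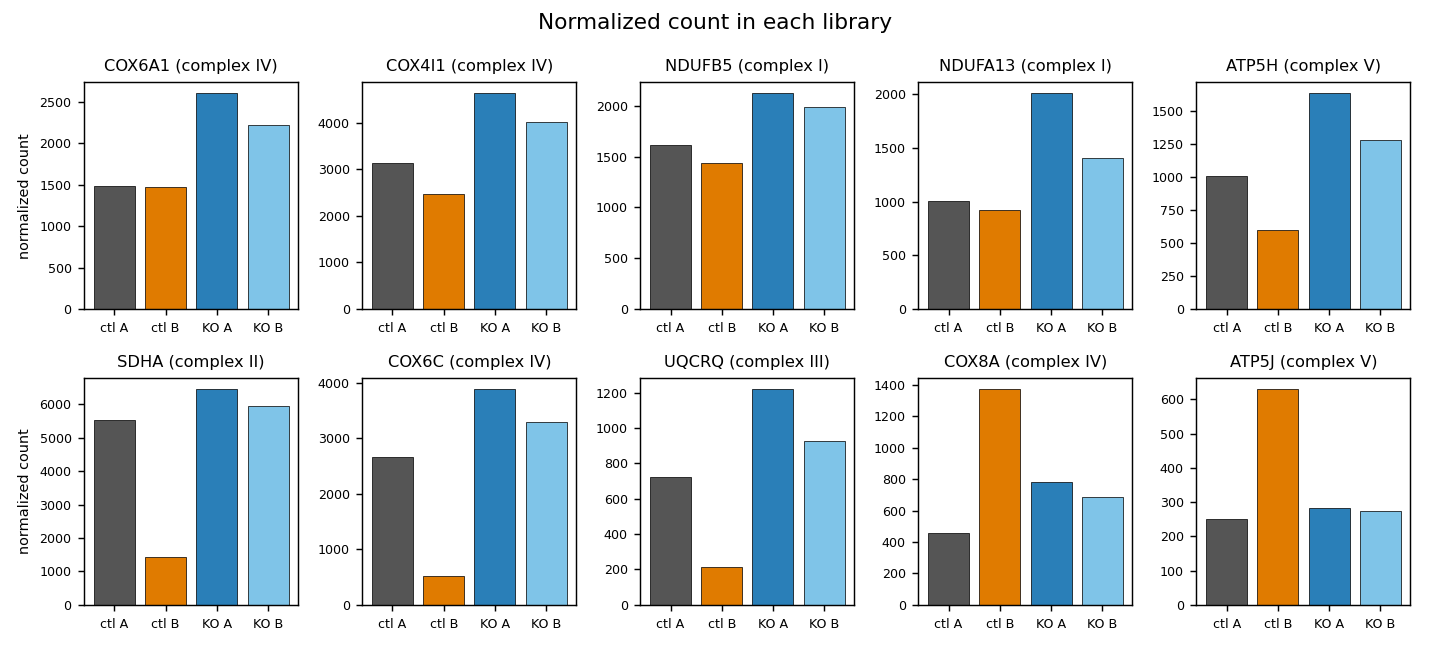
Normalized count (vertical axis, from 0) of 10 members in control A, control B, knockout A and knockout B; each bar is 1 library. In the upper row both knockouts exceed both controls; in the lower row control B is the lowest library for SDHA, COX6C and UQCRQ and the highest for COX8A and ATP5J.

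Against both controls together, complexes I and IV had the highest median deposited fold changes and complex II the lowest. This order was not kept against each control alone, as given below. Among the 77 members with a base mean of at least 100, 51 (66.2%) had a deposited log2 fold change above 0 in the authors' table, against 47.8% of all genes. The median over measured members was 0.32 for complex I, -0.25 for complex II, 0.13 for complex III, 0.31 for complex IV and 0.12 for complex V, beside -0.05 over all measured genes. The value of complex II there includes the locus overlapping SDHD, which falls below the floor used next. For members with a base mean of at least 100 the medians were 0.33, -0.11, 0.03, 0.31 and 0.01 in the same order, beside -0.03. Both knockouts lay above both controls in 30 of the 77 members (39%), against 24.6% of all genes, and below both controls in 1, against 22.7%. Those shares are not matched for transcript length, and counts by length are given below. By complex the 30 were 15 of 37, 1 of 4, 2 of 9, 6 of 11 and 6 of 16. Members of a complex are not replicates of a condition, so these counts and medians carry no test.

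**Figure D3:**
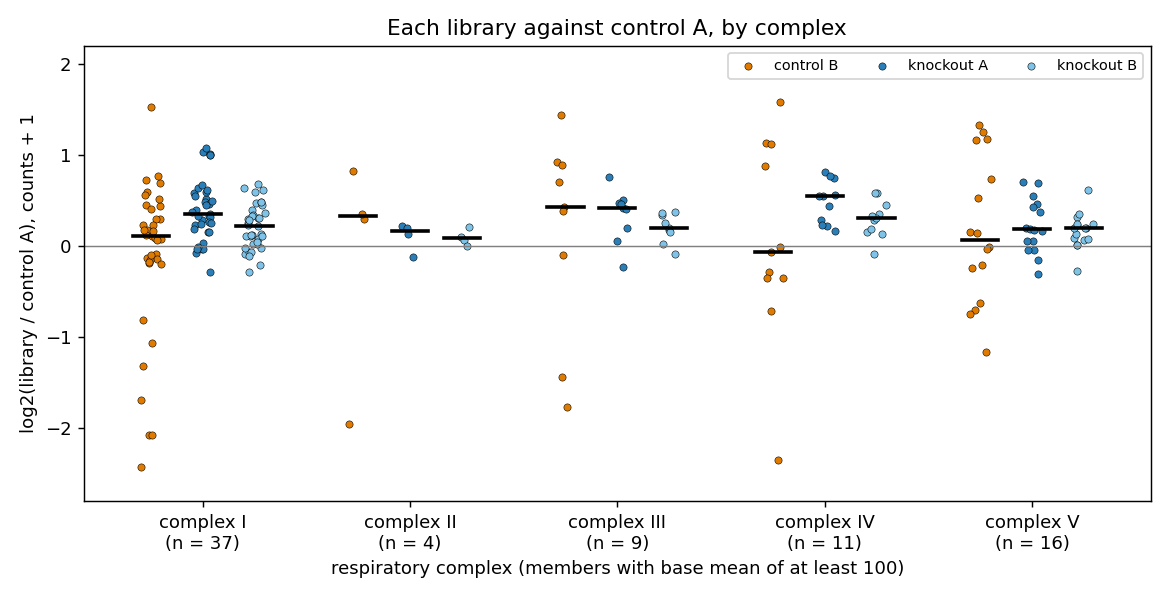
Difference of control B, knockout A and knockout B from control A, as log2 of the ratio of normalized counts + 1 (vertical axis), for the members of each complex with a base mean of at least 100; black lines are medians. Control B ranges from -2.42 to 1.59, while knockout A and knockout B range from -0.30 to 1.08.

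The medians of the complexes lay closer together against control A than against control B. The controls differed by more than 2-fold in 20 of the 77 members (26%), 9 with control B higher and 11 with control B lower, against 38% of all genes. The knockouts differed from each other by more than 2-fold in 0 members, against 0.505% of genes, and their mean from control A in 0, against 1.44%. The standard deviation over members was 0.91 for control B minus control A and 0.20 for knockout B minus knockout A. Against control A, both knockouts were higher in 59 of 77 members, against 43.3% of genes, and both lower in 5, against 38.3%. By complex these 59 were 27 of 37 in complex I, 3 of 4 in II, 7 of 9 in III, 10 of 11 in IV and 12 of 16 in V. COX5A was the complex IV member outside this count. The median difference of the knockout mean from control A was 0.30 for complex I, 0.15 for II, 0.31 for III, 0.43 for IV and 0.19 for V, beside 0.02 for all genes. Against control B, both knockouts were higher in 39 of 77, beside 45.7% of genes. The median differences from control B were 0.21, -0.27, -0.28, 0.49 and -0.04 in the same order, beside -0.05. At this base mean the signs for complexes II, III and V depended on which control was used, and those for complexes I and IV did not. The order of the complexes depended on it as well. Complex III stood slightly above complex I against control A and slightly below complex II against control B. Over all measured members complex V was at 0.11 without control A and 0.23 without control B, so its sign there was the same with either control. What sets control B apart was not tested.

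**Figure D4:**
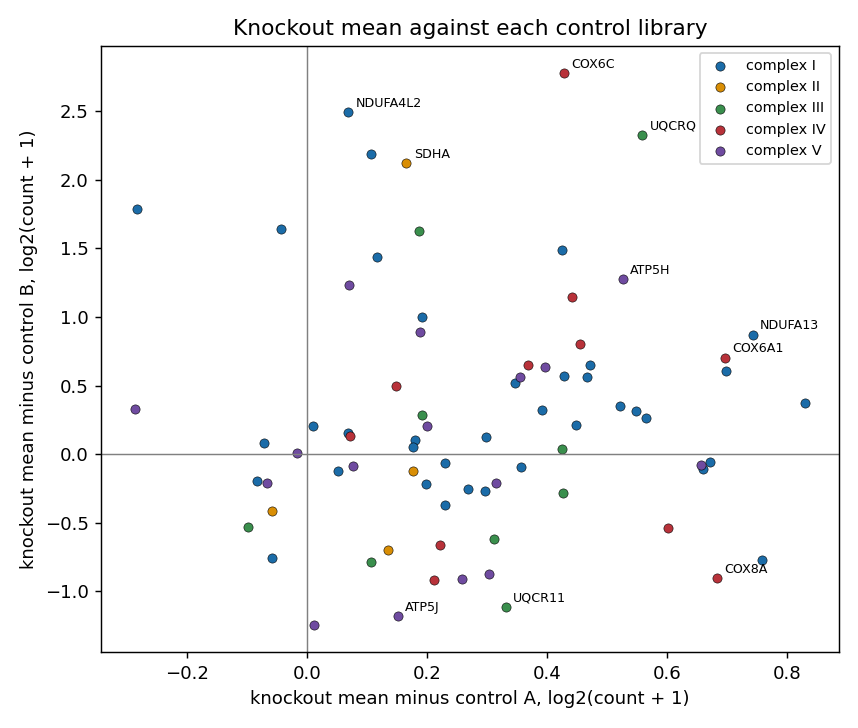
Knockout mean minus control A (horizontal axis) and minus control B (vertical axis), both as differences of log2(normalized count + 1), for 77 members coloured by complex. Points spread from -0.29 to 0.83 along the horizontal axis and from below -1 to above 2 along the vertical one.

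Calls from limma followed the choice of control. Without control A, 23 members had an adjusted p under 0.05, 14 higher and 9 lower, when 33% of all genes did, 17% higher and 16% lower. SDHA, at 2.12 on the log2 scale with a limma adjusted p of 0.0258, and COX6C, at 2.77 with 0.0282, were among them. Without control B, 0 members had a limma adjusted p under 0.05 (0% of genes), while 27 were higher and 2 lower at an unadjusted p under 0.05, against 8.39% and 5.75% of genes. In that fit SDHA stood at 0.17 (limma adjusted p 0.527) and COX6C at 0.43 (limma adjusted p 0.317). In both fits the lone control was assumed to vary like the knockouts.

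Transcript length moved with the same measure. Length here is the median over a gene's protein-coding transcripts in GENCODE release 29. Of 845 genes under 1000 bases, 61.9% had both knockouts above control A, compared with 48.7% from 1000 to below 2000 bases, 41.1% from there to below 4000 and 38.6% beyond. Most respiratory chain subunits are small proteins, and 49 of the 77 members were under 1000 bases. Both knockouts exceeded control A in 41 of these 49 (83.7%) and in 18 of the 28 longer ones (64.3%). Both knockouts exceeded both controls in 19 of the 49 (38.8%), beside 33.6% of all genes of that length, and in 11 of the 28 (39.3%), beside 28.5% of all genes from 1000 to below 2000 bases, 22.2% from there to below 4000 and 21.9% beyond. The median difference from control A was 0.33 for short members and 0.19 for short genes in all. By the deposited DESeq2 test, 8 of 51 short members with an adjusted p were higher at an unadjusted p under 0.05. Of all genes under 1000 bases, 91 of 1059 were. Among longer members 3 of 30 were. Beside these stood 144 of 3422 genes from 1000 to below 2000 bases, 133 of 5342 to below 4000 and 84 of 3253 beyond. The part of length in the members' differences was not tested.

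**Figure D5:**
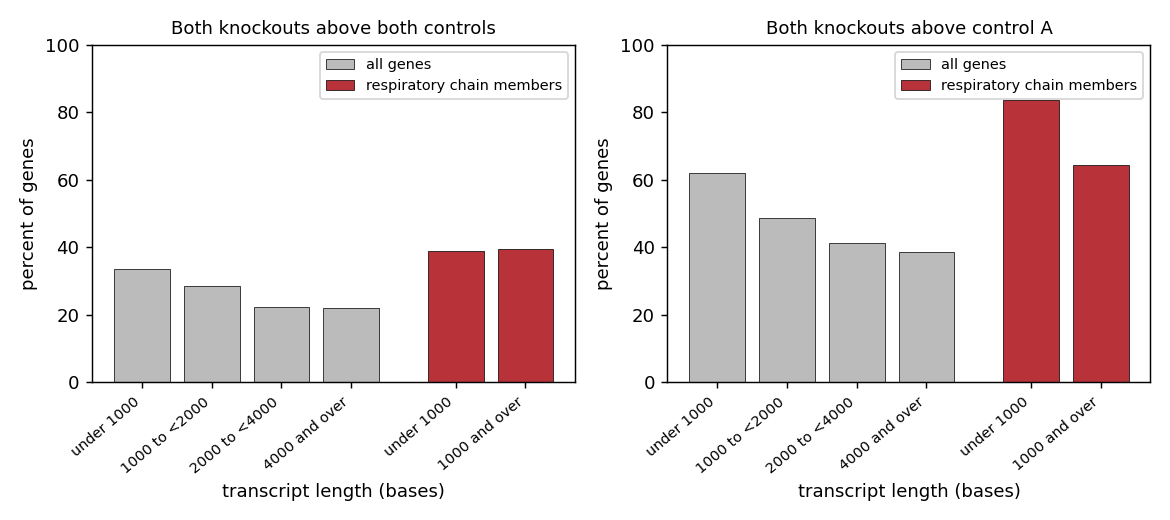
Percent of genes (vertical axis) with both knockouts above both controls (left) and above control A (right) by transcript length in bases; grey bars are all genes at a base mean of 100 or more, red bars the 77 members. Grey bars fall with length, from 61.9% to 38.6% on the right, and the red bars lie at 83.7% and 64.3%.

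Levels per kilobase of transcript differed between the complexes, and their medians are given for members with a base mean of at least 100. The median normalized count per kilobase over 4 libraries was 774 for complex I, 2645 for complex II, 1190 for complex III, 2436 for complex IV and 1843 for complex V. For complex IV the median was 1768 for control A, 1662 for control B, 2970 for knockout A and 2415 for knockout B. For complex I it was 657, 734, 853 and 824. These levels rest on annotated transcript lengths, which for genes with several transcripts are approximate. The median of complex II rested on 4 genes, among them SDHC at 5934 per kilobase with a length of 460 bases. Complex V here included ATP5S and ATP5SL, and complex I included NDUFA4. These are transcript levels and do not order the complexes themselves by abundance. Over all measured members, the lowest general subunits were ATP5I, subunit e of complex V, at 51.5 per kilobase with 17, 6, 44 and 13 reads, and NDUFA7 at 96.7 with 64, 55, 69 and 48 reads. Both had overlapping groups.

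The mitochondrially encoded subunits lay on the lower side in the knockouts. All 13 were measured. By the deposited DESeq2 test 0 of the 13 had an adjusted p under 0.05, and 6 were lower at an unadjusted p under 0.05, beside 9.49% of all genes. Their median deposited log2 fold change in the authors' table was -0.58. In all 10 whose reads were recovered both knockouts lay below both controls, compared with 22.7% of all genes. Genes of the mitochondrial genome are not independent replicates, so this count carries no test. Of these 10, 6 have base means in the range given for ATP5B, where recovered reads are less certain, MT-CO3 among them. MT-CO3 of complex IV had 18109 and 18262 in the controls against 16316 and 17459 in the knockouts, and MT-ND3 of complex I had 1229 and 3666 against 902 and 1221. The median difference of these 10 from control A was -0.25 on the log2 scale, and from control B -0.77.

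Other genes of the pathway gave no call. Over all genes with an adjusted p, 3.13% were higher and 9.49% lower at an unadjusted p under 0.05, and the counts below stand beside these shares. Of 17 complex I assembly factors with NDUFAB1, the acyl carrier protein that is also a subunit, 0 had an adjusted p under 0.05 and 0 an unadjusted one. ACAD9, with the highest fold change of that list at a base mean of at least 100, had 2069, 474, 2292 and 1948 in control A, control B, knockout A and knockout B, and NDUFAF4, with the lowest at that base mean, had 190, 476, 197 and 220. Of 34 assembly factors of complexes II to V 0 were called and 2 were lower at an unadjusted p under 0.05, COA7 and TMEM70. COA7, needed for complex IV assembly, had 850 and 2015 against 669 and 678, and COA6, the highest of the list, had 384 and 178 against 607 and 443. None of 14 genes for electron carriers and ubiquinone synthesis was called, and 0 had an unadjusted p under 0.05. ETFB, a subunit of the electron transfer flavoprotein, had 1027 and 264 against 1803 and 1249, and COQ7 had 125 and 473 against 190 and 214. In the citric acid cycle 0 of 13 were called and 2, MDH2 among them, were higher at an unadjusted p under 0.05. MDH2, malate dehydrogenase, had 2273 and 2196 in the controls against 3326 and 2821 in the knockouts. IDH3B, with the lowest fold change, had 690 and 2660 against 719 and 632.

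Among 15 regulators of these genes 0 were called and 1, MYC, was higher at an unadjusted p under 0.05. MYC had 3752 and 1370 in the controls against 5969 and 5602 in the knockouts, and its difference from control A was 0.62 on the log2 scale. PPARGC1A, the coactivator PGC-1alpha that drives mitochondrial biogenesis, had 603 for control A, 4.47 for control B, 672 for knockout A and 680 for knockout B. NRF1 itself had 359 and 370 against 341 and 345. GABPA, which binds the ETS motif, had 638, 1580, 661 and 559 in control A, control B, knockout A and knockout B, so that control B alone was high. It had the lowest fold change of the list.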

How the data were processed

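Total RNA (integrity number 7 or more) of 4 libraries was sequenced on an Illumina instrument, per the labels' protocols. Tools named in the submitters' processing notes, without versions, are STAR, RSEM, cutadapt and FastQC, with build hg19. The authors deposited 1 DESeq2 result table: the base mean is a signal (counts divided by size factors, averaged), the fold change and standard error are log2 values, the Wald statistic is a score, and the deposited p-values are unadjusted and Benjamini-Hochberg adjusted.

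Calls are the authors' adjusted p under 0.05, over 16629 genes. The members and gene lists were chosen with earlier results of these data known. Reads in single libraries were recovered from the digits of the base means, a method chosen after the data were seen: whole numbers times 4 steps (those of genes with a single read) had to give the base mean and a fold change within 0.001 log2 of the deposited one, or 2e-05 from a base mean of 1000 and 2e-06 from 10000. This gave reads for 30680 of 30831 genes (99.5%) and all 89 members; 19 genes from a base mean of 30000 were not searched. Of 600 base means below 10000 shifted on purpose, 0 gave a solution. RSEM estimates counts, so these are rounded estimates, and RSEM may divide reads of near-identical genes.

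Alternatives were limma 3.58.1 (R 4.3.3, trended prior) on log2(normalized count + 1), which understates changes of low genes, voom, TMM and total-read scaling, other filters, and leaving out each library. Total-read scaling used the sums of recovered reads only. Recovery and limma were tested on simulated data. The limma simulation took its means from control A and the knockouts, so it held no library as far apart as control B. It thus does not show how limma performs on these libraries. Named members were those with an unadjusted p under 0.05, the highest base mean, the 2 highest and 2 lowest fold changes per complex, the SDH genes, isoform pairs and, per list, the extremes. Some genes the rule names are not reported here. Other members named, and KRT7, KRT8, KRT18, KRT19, CD68, PPARGC1A, NRF1, TMEM70 and MDH2 beyond that rule, were chosen after their values were seen. Computations used Python 3.11.15, numpy 2.4.6, pandas 2.3.3, numba 0.67.0 and matplotlib 3.10.9.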

Additional observations from a re-analysis of the deposited data

How the results depend on the processing

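No paired analysis was possible because the recovered libraries carry no replicate numbers. The authors' deposited table called 93 genes, and over all genes tested limma called 0 with a pseudocount of 1 (518 at an unadjusted p under 0.05), 0 with 0.1 (486), 0 with a mean of at least 10 (280), 0 with voom (453), 0 with TMM (524) and 0 with total reads (524). Leaving out each library gave 0 to 8261 called genes and 0 to 23 called members, both highest without control A. CFL1 itself had limma adjusted p of 0.267 to 0.9997 in the fits that did not call it.

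Total-read scaling shifted the median of all genes by 0.117 on the log2 scale, and raised the medians of complexes I to V to 0.44, -0.12, 0.27, 0.44 and 0.24. Counting NDUFA4 with complex IV gave that complex 0.21. For complex V the median was 0.015 at a base mean of at least 100, 0.20 over general subunits and 0.145 with TMM. Leaving out each library gave complex I 0.20 to 0.38, complex II -0.42 to 0.14, complex III -0.12 to 0.32, complex IV 0.31 to 0.49 and complex V 0.11 to 0.23. Of 84 measured members, both knockouts exceeded both controls in 33, beside 18.1% of all genes with a base mean above 0. Without 1 library the count was 35 to 62. Both lay below in 2, beside 17%, and in 1 at a base mean of at least 100, beside 22.7%. With total reads both lay below in 4, and without 1 library in 5 to 33. Leaving out a library can only raise or keep such a count, so these rises are no result about the members. Shares over all genes are not given for total reads or without 1 library.

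Among members chosen by the naming rule, none of them called in a fit with all libraries, these changed sign on the log2 scale with limma; other members also did when a control was left out. ATP5B gave 0.013 with TMM and 0.11 with total reads. COX7A2 gave 0.034 with a pseudocount of 1, with 0.1 and with a mean of at least 10, 0.052 with voom, 0.051 with TMM and 0.15 with total reads. NDUFA1 gave 0.033, 0.011 and 0.11 with voom, TMM and total reads, and total reads gave COX8A 0.0054 and NDUFA4 0.080. Leaving out each library in turn, with the lowest value without control A and the highest without control B, gave ATP5B -0.085 to 0.076, ATP5J -1.18 to 0.15, ATP5S -1.24 to 0.011, COX6B1 -0.66 to 0.22, COX7A1 -0.26 to 0.0073, COX7A2 -0.53 to 0.60, COX7A2L -0.92 to 0.21, COX8A -0.91 to 0.68, NDUFA1 -0.77 to 0.76, NDUFA4 -0.12 to 0.051, SDHB -0.70 to 0.14, SDHC -0.12 to 0.18, UQCR11 -1.12 to 0.33 and UQCRH -0.79 to 0.11. The cause was not tested.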
